A study of Homo sapiens with 18 samples.

Results

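A1847 cells, a human ovarian cancer line that expresses CARM1, were studied under endoplasmic reticulum (ER) stress and after CARM1 knockout or XBP1 knockdown. The genes of DNA replication were followed in them. They were the 44 genes of a list of symbols covering origin licensing, the replicative helicase, the polymerases, the clamp and its loader, and nucleotide supply, among 57736 genes in the count table. All 44 had a row, and all 44 passed the filter on low counts, with at least 54 counts in every library. mRNA was measured in 18 libraries, 3 replicates in each of 6 groups. Control cells, which the labels call wild type, were set beside CARM1 knockout (KO) cells, made with a lentiviral CRISPR guide, and XBP1 knockdown (KD) cells, made with a lentiviral short hairpin RNA. Each genotype was given vehicle or tunicamycin (5 μg/ml, 8 h), an inhibitor of N-linked glycosylation that causes ER stress. CARM1 is an arginine methyltransferase that works as a transcriptional coactivator, and XBP1 is a transcription factor of the unfolded protein response. The sources used here do not say whether control cells carried a control vector or whether the KO cells were 1 clone. The study's figure legends speak of independent experiments in general, but the labels do not say that the replicates of a group were separate cultures. The p-values measure only the spread between these libraries, which may be technical. KO and KD cells were compared with one and the same set of control libraries.

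Replication begins at origins, where the origin recognition complex (ORC), CDC6 and CDT1 load the ring of MCM2 to MCM7 onto DNA in G1 phase, and geminin (GMNN) blocks further loading once S phase has begun. The kinase CDC7 with its activator DBF4, together with MCM10, CDC45 and the GINS complex, turns the loaded ring into the active CMG helicase. Polymerase alpha with primase lays down primers, polymerases delta and epsilon extend them on the sliding clamp PCNA, which the RFC complex loads, RPA covers single-stranded DNA, and FEN1 and LIG1 join the Okazaki fragments. Ribonucleotide reductase (RRM1, RRM2) and thymidylate synthase (TYMS) supply the nucleotides. Many of these genes are transcribed ahead of S phase under E2F factors, and they are widely used as marks of proliferation. In bulk libraries, fewer cells in S phase and less RNA per cell cannot be told apart.

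Levels are given as CPM, the count of a gene per 1000000 counts of the library after TMM scaling, for replicates 1, 2 and 3 in that order. Library totals ran from 9367462 to 13917212 counts. Tunicamycin raised HSPA5, the ER chaperone BiP, from 1282, 1304 and 1245 CPM to 10834, 10495 and 10726 CPM in control cells (log2 fold change 3.08, SE 0.044, edgeR adjusted p = 6.85e-17). DDIT3, the stress factor CHOP, rose from 12.7, 13.6 and 10.2 CPM to 297, 293 and 288 CPM (log2 fold change 4.61, SE 0.084, edgeR adjusted p = 6.46e-16). Both genes rose in the KO and KD cells as well. Their rise was larger in KO than in control cells (log2 difference 0.67 for HSPA5 and 0.39 for DDIT3, edgeR adjusted p = 1.06e-09 and 0.0187). In KD cells it did not differ past the threshold (−0.090 and −0.11, edgeR adjusted p = 0.404 and 0.769). XBP1 was at 51.1, 43.2 and 43.5 CPM in control cells with vehicle and at 25.5, 24.1 and 26.5 CPM in KD cells (log2 fold change −0.86, SE 0.086, edgeR adjusted p = 2.54e-05). With tunicamycin it had 979, 839 and 871 counts before scaling in KD cells, against 1843, 1790 and 1954 in control cells. The stressed KD cells thus held more XBP1 counts than control cells with vehicle (661, 587 and 649). CARM1 was at 165, 162 and 160.0 CPM in control cells with vehicle and at 73.5, 77.7 and 71.6 CPM in KO cells (log2 fold change −1.17, SE 0.052, edgeR adjusted p = 1.21e-11). With vehicle, XBP1 was thus lower in KD and CARM1 in KO cells, although a 3′ tag outside the edited exon does not check the edit. Counts before scaling, from libraries of unequal totals, also differed in the other genotype with vehicle. XBP1 had 391, 494 and 262 counts in KO cells, the last in the library of 9367462 counts, against 661, 587 and 649 in control cells. CARM1 had 2561, 2664 and 2680 counts in KD cells, against 2136, 2194 and 2389 in control cells. This CARM1 difference lost its call without control vehicle replicate 1 or 2 or KD vehicle replicate 2 (edgeR adjusted p = 0.0566, 0.0870 and 0.0895). The KO libraries stood apart from all others. Their log CPM correlated at 0.73 to 0.775 with control or KD libraries over 72 pairs, against 0.961 to 0.987 between control and KD libraries, while 27 genes with 100 or more counts in all control and KD libraries had no more than 3 in any KO library and 113 genes showed the reverse. Between control and KD libraries there were 0 such genes in either direction. The ovarian markers PAX8 and WT1 reached 3 counts or fewer in control and KD libraries. In KO libraries PAX8 had 465 to 840 counts, whereas WT1 stayed near the floor with 3 to 13. The 8 ovarian and epithelial markers summed to 2252 to 2773 CPM in KO, 310 to 486 CPM in control and 130 to 215 CPM in KD libraries, with MUC16 at 3 counts or fewer in all. Keratins made up most of these sums. KRT18 had 12965 to 18887 counts in KO, 3279 to 5479 in control and 1435 to 2542 in KD libraries. EPCAM had 157 to 266 in KO and 22 to 52 in control libraries. Of 7 markers of other cell types, 5 were detected in control and KD libraries (all but CD3E and VWF) and 4 in KO libraries (all but PTPRC, CD3E and DCN), at summed levels of 324 to 506, 249 to 316 and 195 to 507 CPM. These sums were made up differently. ACTA2 had 3921 to 6654 counts in control and 45 to 82 in KO libraries, whereas COL1A1 had 103 to 259 and 2205 to 6247. VWF had at most 4 counts in a KO library, and PTPRC at most 11 in a control or KD library. The loss of CARM1 and whatever else sets the KO libraries apart cannot be told apart in any comparison of KO with control cells below.

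Promoters are shown for 4 of the members named below, because E2F-like letters were more frequent among the members' promoters than among all promoters. RefSeq promoters of 300 bases, from 250 bases before to 50 after the start (GRCh38.p14, a build other than the counts' own), were matched for 38 of the 44 members. The letters TTTNNCGC, searched on both strands, occurred in 20 of them (52.6%), against 8.1% of all 18510 promoters in the table. Capitals mark every E2F-like match, and all 4 are printed 5′ to 3′ on the gene's own strand.
CDC6 (chr17:40287629-40287928, plus strand): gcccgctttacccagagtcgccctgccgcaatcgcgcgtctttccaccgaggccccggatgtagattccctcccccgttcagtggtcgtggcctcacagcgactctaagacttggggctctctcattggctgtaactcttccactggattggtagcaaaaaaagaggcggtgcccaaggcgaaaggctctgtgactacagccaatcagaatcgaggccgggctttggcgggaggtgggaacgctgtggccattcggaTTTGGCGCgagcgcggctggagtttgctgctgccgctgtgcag
PCNA (chr20:5126573-5126872, minus strand): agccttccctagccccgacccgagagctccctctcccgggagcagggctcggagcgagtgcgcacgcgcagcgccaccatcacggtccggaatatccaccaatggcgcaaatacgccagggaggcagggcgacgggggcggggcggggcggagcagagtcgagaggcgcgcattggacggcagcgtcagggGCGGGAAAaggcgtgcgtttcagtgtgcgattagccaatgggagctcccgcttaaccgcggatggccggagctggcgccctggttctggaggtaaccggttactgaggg
MCM6 (chr2:135876394-135876693, minus strand): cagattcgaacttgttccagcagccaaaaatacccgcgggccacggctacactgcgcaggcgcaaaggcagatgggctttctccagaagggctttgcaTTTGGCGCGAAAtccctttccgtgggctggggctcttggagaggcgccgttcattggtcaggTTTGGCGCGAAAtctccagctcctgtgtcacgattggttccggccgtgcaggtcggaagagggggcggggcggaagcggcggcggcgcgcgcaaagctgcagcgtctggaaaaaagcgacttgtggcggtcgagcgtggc
MCM10 (chr10:13161308-13161607, plus strand): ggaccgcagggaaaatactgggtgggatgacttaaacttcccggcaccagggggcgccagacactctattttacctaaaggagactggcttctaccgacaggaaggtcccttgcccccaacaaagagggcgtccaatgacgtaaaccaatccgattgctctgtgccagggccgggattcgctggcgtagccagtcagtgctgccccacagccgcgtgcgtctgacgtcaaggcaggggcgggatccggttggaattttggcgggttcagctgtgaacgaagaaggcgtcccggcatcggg
The promoter of CDC6 held 1 match, that of PCNA 1 and that of MCM6 4 in a pair of overlapping stretches, while that of MCM10 held 0. Stretches 1 base off the pattern were not counted. The MCM10 promoter, and that of CDC6 besides its match, held TTTGGCGG, which differs from the pattern in the last base. The letters CCAAT, also searched on both strands, were in 21 of the 38 promoters (55.3%, against 36.1% of all), and the CHR-like letters TTTGAA in 2 (5.26%, against 13.1%). Of letters linked to XBP1s, ACGTCA was in 6 promoters (15.8%, against 9.49%) and TGACGTGG in 0 (against 0.854%). A match describes letters in this window and shows no binding, and the lack of one says only that these letters are not in it.

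The first question was how ER stress changed the replication genes in each genotype. In control cells, tunicamycin lowered 30 of the 44 members and raised 6, with 8 past no threshold, and their median log2 fold change was −0.34. Over all 17317 genes tested, 41.9% were called, 22.0% higher and 19.9% lower, with a median of 0. In KD cells 30 members fell and 3 rose (all genes, 38.3% called, 19.2% higher and 19.0% lower), with a median of −0.33. In KO cells 25 fell and 5 rose (all genes, 39.5% called, 20.6% higher and 18.8% lower), with a median of −0.22. In single libraries, the median difference of the 44 members from vehicle-treated control cells lay between −0.39 and −0.36 on the log2 scale in tunicamycin-treated control cells, between −0.32 and −0.26 in tunicamycin-treated KD cells, and between 0.045 and 0.066 in vehicle-treated KD cells. For KO libraries it lay between −0.37 and −0.32 with vehicle and between −0.46 and −0.43 with tunicamycin. In each genotype all tunicamycin libraries lay below all vehicle libraries.

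**Figure D1:**
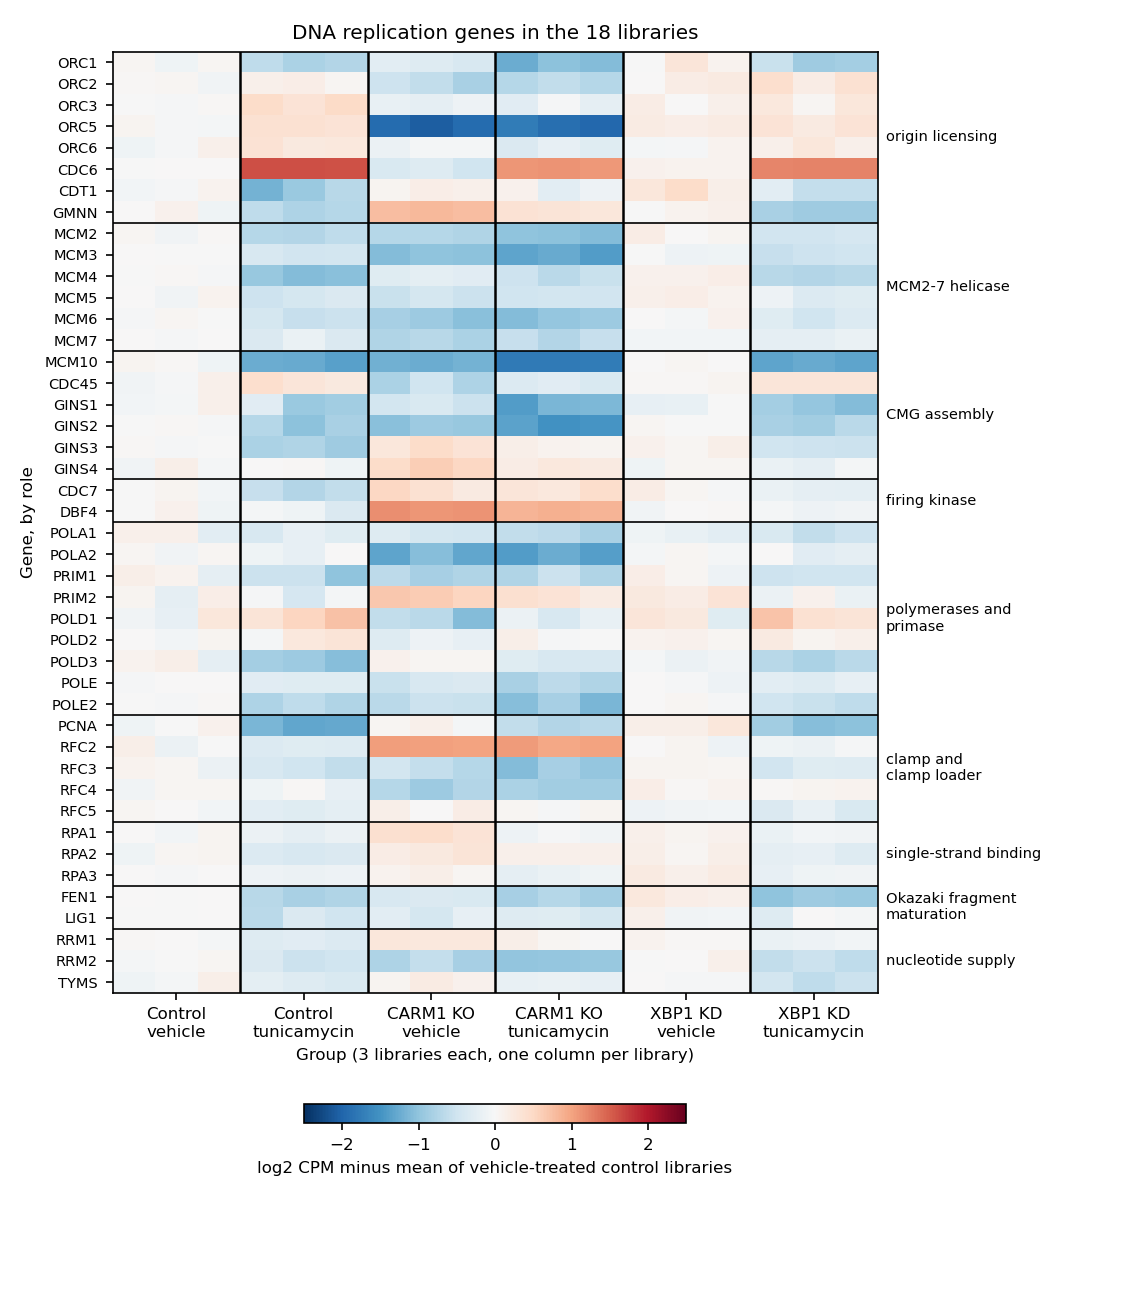
Level of each of the 44 replication genes (rows, by role) in each of the 18 libraries (columns, 3 per group), as log2 CPM minus the mean of the 3 vehicle-treated control libraries; blue is lower and red is higher. CDC6 is red in all 9 tunicamycin libraries, MCM10 is blue in all of them and in the KO vehicle libraries, and ORC5 is dark blue in all 6 KO libraries.

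Among the origin licensing factors, CDC6 rose and CDT1 and GMNN fell, so the loaders and their inhibitor did not move one way. Of the 8 genes of this role, 4 rose and 3 fell in control cells, and their log2 fold changes ran from −0.91 to 1.62 around a median of 0.21. CDC6, the loader that brings CDT1 and the helicase ring to ORC, had 98.3, 99.8 and 99.98 CPM in control cells with vehicle and 303, 304 and 299 CPM with tunicamycin. The levels did not overlap, and the rise was 3.06-fold (log2 fold change 1.62, SE 0.052, edgeR adjusted p = 5.79e-13). In KD cells CDC6 went from 106, 106 and 106 CPM to 232, 235 and 236 CPM (log2 fold change 1.13, SE 0.045, edgeR adjusted p = 3.24e-11). In KO cells it went from 76.5, 79.5 and 70.6 CPM to 215, 217 and 211 CPM (log2 fold change 1.53, SE 0.044, edgeR adjusted p = 1.94e-17). It was the member with the largest rise in each genotype, on chromosome 17 of GRCh37 from 38444131 to 38460909.

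The ORC subunits differed among themselves. ORC1, the largest subunit, went from 18.6, 17.9 and 16.8 CPM to 9.35, 10.8 and 10.4 CPM in KO cells (log2 fold change −0.77, SE 0.11, edgeR adjusted p = 4.78e-06). It fell in all 3 genotypes, with log2 fold changes of −0.71 in control and −0.90 in KD cells. ORC3 went from 25.8, 25.5 and 26.3 CPM to 35.5, 32.6 and 35.9 CPM in control cells (log2 fold change 0.44, SE 0.082, edgeR adjusted p = 0.000399). ORC5 went from 43.6, 40.5 and 39.8 CPM to 54.1, 53.5 and 52.3 CPM (log2 fold change 0.38, SE 0.071, edgeR adjusted p = 0.000368). Both rose in control cells without overlap, and neither passed the threshold in KD or KO cells. ORC6, the smallest subunit, rose in control cells from 84.9, 89.2 and 99.6 CPM to 117, 108 and 109 CPM (log2 fold change 0.30, SE 0.068, edgeR adjusted p = 0.00207). It also rose in KD cells, from 88.3, 88.9 and 96.5 CPM to 99.2, 111 and 99.8 CPM (log2 fold change 0.17, SE 0.06, edgeR adjusted p = 0.0365). In KO cells, by contrast, it fell from 82.6, 88.2 and 88.2 CPM to 71.3, 78.5 and 73.7 CPM (log2 fold change −0.17, SE 0.053, edgeR adjusted p = 0.0113). The rise of ORC6 in KD cells lost its call without vehicle replicate 1 or 2 or tunicamycin replicate 2 (edgeR adjusted p = 0.105, 0.129 and 0.154). ORC2 was called in none of the 3 genotypes.

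GMNN, the inhibitor of loading, went from 108, 116 and 118 CPM to 62.1, 58.3 and 58.4 CPM in KD cells (log2 fold change −0.95, SE 0.058, edgeR adjusted p = 4.4e-09). It also fell in control and KO cells (log2 fold changes −0.70 and −0.42). CDT1, the loader it binds, fell in control cells from 60.7, 62.5 and 67.5 CPM to 27.9, 33.3 and 39.4 CPM (log2 fold change −0.91, SE 0.1, edgeR adjusted p = 1.67e-06) and in KD cells (log2 fold change −0.78, SE 0.094, edgeR adjusted p = 7.26e-06). In KO cells it was at 66.6, 71 and 68.9 CPM with vehicle and 68.2, 53.2 and 58.3 CPM with tunicamycin, which overlapped and did not pass the threshold (log2 fold change −0.17, SE 0.07, edgeR adjusted p = 0.0675).

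All 6 subunits of the MCM2 to MCM7 helicase fell in control cells and in KD cells, with medians of −0.47 and −0.43. In KO cells 3 fell and 1 rose, with a median of −0.14 and a range of −0.28 to 0.15. MCM4 had the largest fall of the ring in control cells, from 280.3, 288 and 278 CPM to 146, 132 and 137 CPM (log2 fold change −1.02, SE 0.055, edgeR adjusted p = 3.26e-10). It went from 303, 304 and 318 CPM to 174, 169 and 176 CPM in KD cells (log2 fold change −0.84, SE 0.045, edgeR adjusted p = 9.15e-10). The KO levels were 227, 237 and 231 CPM with vehicle and 196, 178 and 192 CPM with tunicamycin (log2 fold change −0.26, SE 0.041, edgeR adjusted p = 2.01e-05). No vehicle library overlapped a tunicamycin library in any genotype. MCM7 fell in control and KD cells and rose in KO cells, where its vehicle and tunicamycin levels overlapped (log2 fold changes −0.28, −0.14 and 0.15, edgeR adjusted p = 0.000911, 0.0133 and 0.00919).

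The factors that assemble and activate the CMG helicase moved in opposite directions. In control cells 4 of 6 fell and 1 rose (median −0.74), in KD cells 4 fell and 1 rose (median −0.71), and in KO cells 5 fell and 1 rose (median −0.36). MCM10, which activates the assembled helicase, had 133, 129.6 and 117 CPM in control cells with vehicle and 53.4, 53.1 and 49.5 CPM with tunicamycin, a 2.42-fold fall (log2 fold change −1.27, SE 0.068, edgeR adjusted p = 2.68e-10). In KD cells it went from 128, 130.2 and 128 CPM to 50.9, 52.9 and 50.7 CPM, a 2.52-fold fall (log2 fold change −1.33, SE 0.053, edgeR adjusted p = 2.72e-11). In KO cells it was already low with vehicle, at 54.6, 53.2 and 55.4 CPM, and was 37.1, 37.1 and 37.7 CPM with tunicamycin (log2 fold change −0.51, SE 0.062, edgeR adjusted p = 7.44e-07). MCM10 lies on chromosome 10 of GRCh37 from 13203558 to 13253110 and had the largest fall of the 44 members in control and in KD cells.

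CDC45, the CMG subunit that joins the loaded ring together with GINS, rose in all 3 genotypes. Its level went from 24, 29.5 and 24.2 CPM to 32.6, 34.2 and 32 CPM in KO cells (log2 fold change 0.38, SE 0.086, edgeR adjusted p = 0.00113). It went from 42.2, 42.4 and 43.7 CPM to 51.1, 51.3 and 51.2 CPM in KD cells (log2 fold change 0.25, SE 0.062, edgeR adjusted p = 0.00454) and rose by a log2 fold change of 0.33 in control cells. CDC6 and CDC45 were the 2 members that rose in every genotype. GINS1, a subunit of the GINS complex, fell in KO cells from 27.7, 29 and 26 CPM to 14.4, 17.1 and 17.3 CPM (log2 fold change −0.73, SE 0.094, edgeR adjusted p = 1.59e-06). Its log2 fold changes in control and KD cells, where it also fell, were −0.67 and −0.84. GINS1 overlaps the 3′ end of NINL on the other strand and GINS2 that of GSE1, and the protocol's strand setting in counting is not given in the sources used here.

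Of the firing kinase, the catalytic subunit CDC7 fell in control cells from 32, 33.7 and 30.8 CPM to 21.5, 19.4 and 21 CPM (log2 fold change −0.63, SE 0.088, edgeR adjusted p = 2.26e-05). It fell in KD cells from 36.7, 33.5 and 31.5 CPM to 28.7, 27.5 and 27 CPM (log2 fold change −0.30, SE 0.082, edgeR adjusted p = 0.00913). In KO cells it was at 46.3, 41.7 and 37.7 CPM and 39.8, 38.7 and 43.5 CPM, which overlapped (log2 fold change −0.015, SE 0.076, edgeR adjusted p = 0.914). Its activator DBF4 was at 75.4, 82.4 and 71.2 CPM and 73.9, 70.7 and 59.1 CPM in control cells and did not pass the threshold there (log2 fold change −0.16, SE 0.083, edgeR adjusted p = 0.149) or in KD cells (log2 fold change −0.084, SE 0.058, edgeR adjusted p = 0.295). In KO cells DBF4 fell from 170.3, 164 and 167 CPM to 137, 141 and 138 CPM (log2 fold change −0.23, SE 0.04, edgeR adjusted p = 5.62e-05).

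Of the 9 polymerase and primase genes, 5 fell and 1 rose in control cells (median −0.28), 6 fell in KD cells (median −0.33), and 5 fell and 2 rose in KO cells (median −0.25). POLD3, an accessory subunit of polymerase delta, went from 54.3, 57 and 43.8 CPM to 28.5, 27.5 and 24.5 CPM in control cells (log2 fold change −0.93, SE 0.1, edgeR adjusted p = 1.16e-06). POLD1, the catalytic subunit of the same enzyme, moved the other way, from 12.4, 11.5 and 16.2 CPM to 16.5, 19.3 and 22 CPM in control cells (log2 fold change 0.54, SE 0.14, edgeR adjusted p = 0.00531). In KO cells it rose from 8.62, 8.22 and 6.18 CPM to 11.9, 10 and 11.5 CPM (log2 fold change 0.55, SE 0.14, edgeR adjusted p = 0.00275). POLD2, its second subunit, rose in KO cells from 80.0, 91.5 and 86.9 CPM to 111, 97.9 and 99.2 CPM (log2 fold change 0.29, SE 0.057, edgeR adjusted p = 0.000279). The subunits of polymerase delta thus changed in opposite directions within the same libraries. POLE and POLE2, of polymerase epsilon, and POLA1, the catalytic subunit of polymerase alpha, fell in every genotype, and POLA2 in none.

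PCNA, the sliding clamp, was among the 4 largest falls in every genotype. It had 175, 188 and 204 CPM with vehicle and 85.8, 76.3 and 77.2 CPM with tunicamycin in control cells (log2 fold change −1.23, SE 0.069, edgeR adjusted p = 4.78e-10). In KD cells the levels were 208, 209 and 230.2 CPM and 103, 90.3 and 92.8 CPM (log2 fold change −1.18, SE 0.062, edgeR adjusted p = 7.52e-10). In KO cells they were 195, 207 and 183 CPM and 123, 114 and 119 CPM (log2 fold change −0.69, SE 0.045, edgeR adjusted p = 4.2e-11). The fall was 2.35-fold, 2.27-fold and 1.61-fold, in that order, and vehicle and tunicamycin levels overlapped in none. Of the 5 genes of the clamp and its loader, 4 fell in control, 3 in KD and 2 in KO cells, and 0 rose. The loader subunit RFC4 was called in no genotype. RFC4 and RFC5 overlap EIF4A2 and WSB2 at their 3′ ends.

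The RPA subunits, which coat single-stranded DNA as a trimer, had log2 fold changes between −0.44 and −0.090. RPA1, the largest subunit, fell from 91.6, 86.8 and 95.4 CPM to 82, 78.1 and 82.1 CPM in control cells (log2 fold change −0.17, SE 0.063, edgeR adjusted p = 0.0443). It fell in KD cells (log2 fold change −0.21, SE 0.053, edgeR adjusted p = 0.00433), and in KO cells from 119.7, 124 and 116 CPM to 83.9, 89 and 85.4 CPM (log2 fold change −0.44, SE 0.046, edgeR adjusted p = 5.39e-08). RPA1 was thus lower with tunicamycin in every genotype without overlap. RPA2 fell in control cells from 82.9, 92.1 and 93.1 CPM to 69.9, 67.3 and 69.7 CPM (log2 fold change −0.36, SE 0.065, edgeR adjusted p = 0.000257) and in KD cells (log2 fold change −0.37, SE 0.057, edgeR adjusted p = 7.99e-05). Its levels in KO cells, 102, 105 and 112 CPM and 96.9, 97 and 97.9 CPM, did not overlap but passed no threshold (log2 fold change −0.09, SE 0.048, edgeR adjusted p = 0.149). RPA3 had 95.6, 93.1 and 94.6 CPM and 86.6, 85.8 and 86.4 CPM in control cells, also without overlap but past no threshold (log2 fold change −0.12, SE 0.058, edgeR adjusted p = 0.117). It fell in KD cells (log2 fold change −0.33, SE 0.054, edgeR adjusted p = 0.000178) and KO cells (log2 fold change −0.23, SE 0.048, edgeR adjusted p = 0.000485).

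Of the pair that completes Okazaki fragments, the flap nuclease FEN1 fell from 275, 271 and 274 CPM to 168, 155 and 161 CPM in control cells (log2 fold change −0.75, SE 0.053, edgeR adjusted p = 9.21e-09). It fell from 328, 307 and 296 CPM to 137, 147 and 143 CPM in KD cells (log2 fold change −1.13, SE 0.051, edgeR adjusted p = 1.29e-10) and from 206, 212 and 211 CPM to 153, 167 and 151 CPM in KO cells (log2 fold change −0.38, SE 0.042, edgeR adjusted p = 1.83e-07). The fall was 1.68-fold, 2.19-fold and 1.30-fold. FADS2 overlaps the 3′ end of FEN1 on the same strand, so reads at this end could belong to either gene. FADS2 itself had log2 fold changes of −0.45, −0.45 and −0.29 in control, KD and KO cells. LIG1, the ligase, fell in control cells from 61.6, 61.7 and 62.9 CPM to 39.1, 48.2 and 43.7 CPM (log2 fold change −0.50, SE 0.079, edgeR adjusted p = 7.65e-05). Its levels in KD cells, 67.5, 58.5 and 59.4 CPM and 49.4, 62.7 and 59.8 CPM, overlapped (log2 fold change −0.12, SE 0.085, edgeR adjusted p = 0.309), as did those in KO cells (log2 fold change −0.024, SE 0.069, edgeR adjusted p = 0.834).

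The nucleotide supply genes all fell in every genotype. RRM1, the large subunit of ribonucleotide reductase, went from 330.1, 323 and 312 CPM to 256, 263 and 255 CPM in control cells (log2 fold change −0.31, SE 0.051, edgeR adjusted p = 0.000116), with log2 fold changes of −0.18 in KD and −0.17 in KO cells. RRM2, the small subunit, went from 290.4, 296 and 309 CPM to 231, 205 and 210.0 CPM (log2 fold change −0.46, SE 0.058, edgeR adjusted p = 6.52e-06), with −0.65 in KD and −0.21 in KO cells. TYMS, which makes thymidylate, went from 184, 192 and 219 CPM to 167, 159 and 152 CPM (log2 fold change −0.30, SE 0.068, edgeR adjusted p = 0.00172), with −0.53 in KD and −0.28 in KO cells. In none of these did a control vehicle library overlap a control tunicamycin library.

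**Figure D2:**
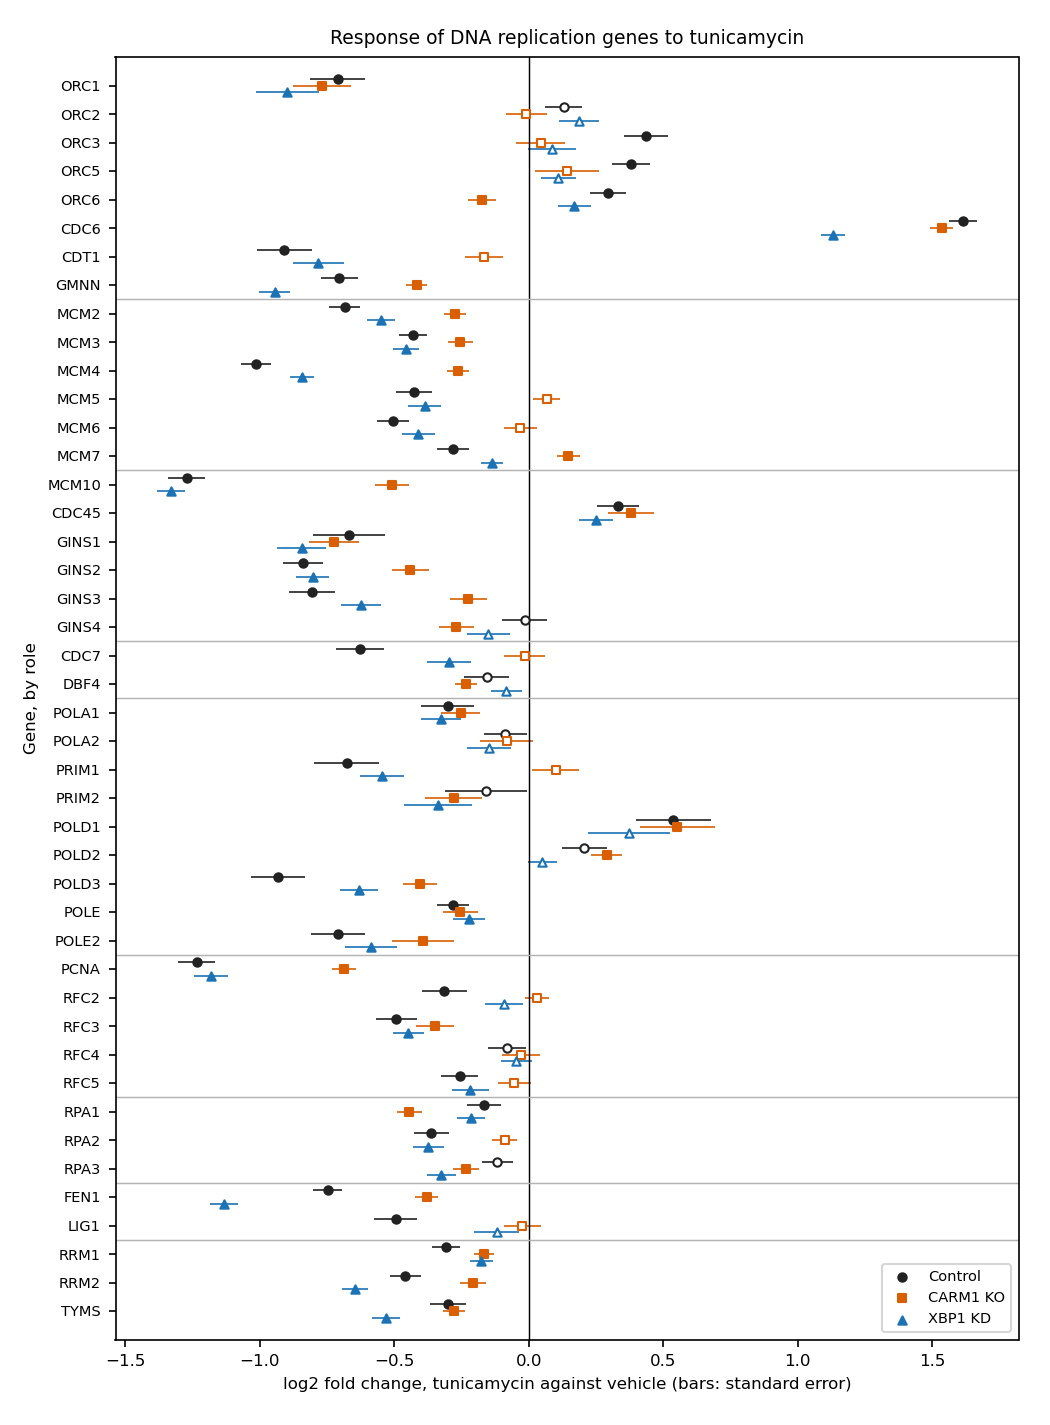
Log2 fold change of each replication gene with tunicamycin against vehicle (x axis; bars, standard error; 3 libraries against 3) in control (circles), KO (squares) and KD cells (triangles); filled symbols passed an FDR of 5% and open symbols did not. Control and KD symbols lie close together for most genes, KO symbols lie nearer to 0 for the MCM ring, and CDC6 is far to the right in all 3.

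Across genotypes, 20 members fell in all 3, among them MCM2, MCM3, MCM4, MCM10, GINS1, GINS2, GINS3, PCNA, FEN1, POLE and RRM2. A further 7 fell in control and KD cells and were called in neither direction in KO cells: CDC7, CDT1, MCM5, MCM6, PRIM1, RFC5 and RPA2. ORC6 and MCM7 were called in opposite directions in different genotypes, and POLA2, ORC2 and RFC4 were called in none. Shares of all genes with these joint calls are not given here, so the counts have no background beside them. Over the 44 members, the log2 fold changes correlated at 0.935 between control and KD cells, 0.792 between control and KO cells and 0.824 between KO and KD cells, against 0.593, 0.379 and 0.355 over all genes. These values are across genes, which are not independent replicates, in separate libraries of one line and one protocol. The 20 members with E2F-like letters had median log2 fold changes of −0.46, −0.24 and −0.43 in control, KO and KD cells, and the 18 matched members without them −0.24, −0.098 and −0.20. Both groups held members that rose and members that fell: CDC6, with a match, rose most, and MCM10, without one, fell most in control and KD cells.

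Whether the response itself differed between genotypes was tested as an interaction term in a fit over the 4 groups concerned. Against control cells, the KO response lay above the control response for 19 members and below it for 3, with 22 past no threshold (all genes, 22.9% called, 10.5% above and 12.4% below). The median term was 0.14 on the log2 scale, against −0.014 over all genes. These terms use the KO libraries, which stand apart as described. The largest terms above 0 were those of PRIM1, a subunit of primase, MCM10 and MCM4. PRIM1 went from 46.4, 44.7 and 36.1 CPM to 29, 28.9 and 21 CPM in control cells (log2 fold change −0.68, SE 0.12, edgeR adjusted p = 0.000223). In KO cells it was at 26.7, 23.6 and 25.1 CPM and 25.1, 28.9 and 24.9 CPM, which overlapped (interaction term 0.76, standard error 0.17, edgeR adjusted p = 0.00193). NACA, at 1168 CPM on average, overlaps the 3′ end of PRIM1 on the same strand. The terms of MCM10 (0.75, standard error 0.088, edgeR adjusted p = 2.74e-06) and MCM4 (0.73, standard error 0.068, edgeR adjusted p = 1.27e-07) came with KO vehicle levels that were already below those of the control cells.

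By role, 5 of the 6 MCM subunits, both Okazaki fragment genes and 3 of the 6 CMG assembly factors had a called term above 0. For the remaining roles the counts above 0 were 2 of 8 licensing factors, 1 of 2 kinase subunits, 2 of 9 polymerase and primase genes, 2 of 5 clamp and loader genes, 1 of 3 RPA subunits and 1 of 3 nucleotide supply genes. The 3 terms below 0 were those of ORC6 (−0.49, standard error 0.088, edgeR adjusted p = 0.00035), ORC3 (−0.41, standard error 0.12, edgeR adjusted p = 0.0139) and RPA1 (−0.30, standard error 0.075, edgeR adjusted p = 0.00608). Without control vehicle replicate 1 or 2 or control tunicamycin replicate 3, 1 member instead of 3 lay below 0. ORC3 (edgeR adjusted p = 0.0723, 0.0747 and 0.0993) and RPA1 (edgeR adjusted p = 0.0603, 0.0916 and 0.0795) lost their calls there, and ORC3 also without control vehicle replicate 3 (edgeR adjusted p = 0.053). In these fits, and without control tunicamycin replicate 2, the terms of all genes shifted too. Their median went from −0.014 to between 0.048 and 0.066, and more genes were called above 0 than below (2176 and 1516 without control vehicle replicate 1). Called terms of the small roles were 0.59 for CDC7, 0.25 for RPA2, 0.35 for FEN1, 0.45 for LIG1 and 0.23 for RRM2. Those of DBF4, RPA3, RRM1 and TYMS passed no threshold (−0.096, −0.13, 0.12 and 0.0036).

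For XBP1 knockdown the response differed from that of control cells for 2 members, both below 0 (all genes, 2.04% called, 0.364% above and 1.67% below). CDC6 rose less in KD than in control cells (interaction term −0.48, standard error 0.061, edgeR adjusted p = 0.000155), and FEN1 fell more (−0.38, standard error 0.072, edgeR adjusted p = 0.00512). Both calls held without each library in turn. The other 42 members passed no threshold, and 14 of the 44 had an unadjusted p under 0.05.

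**Figure D3:**
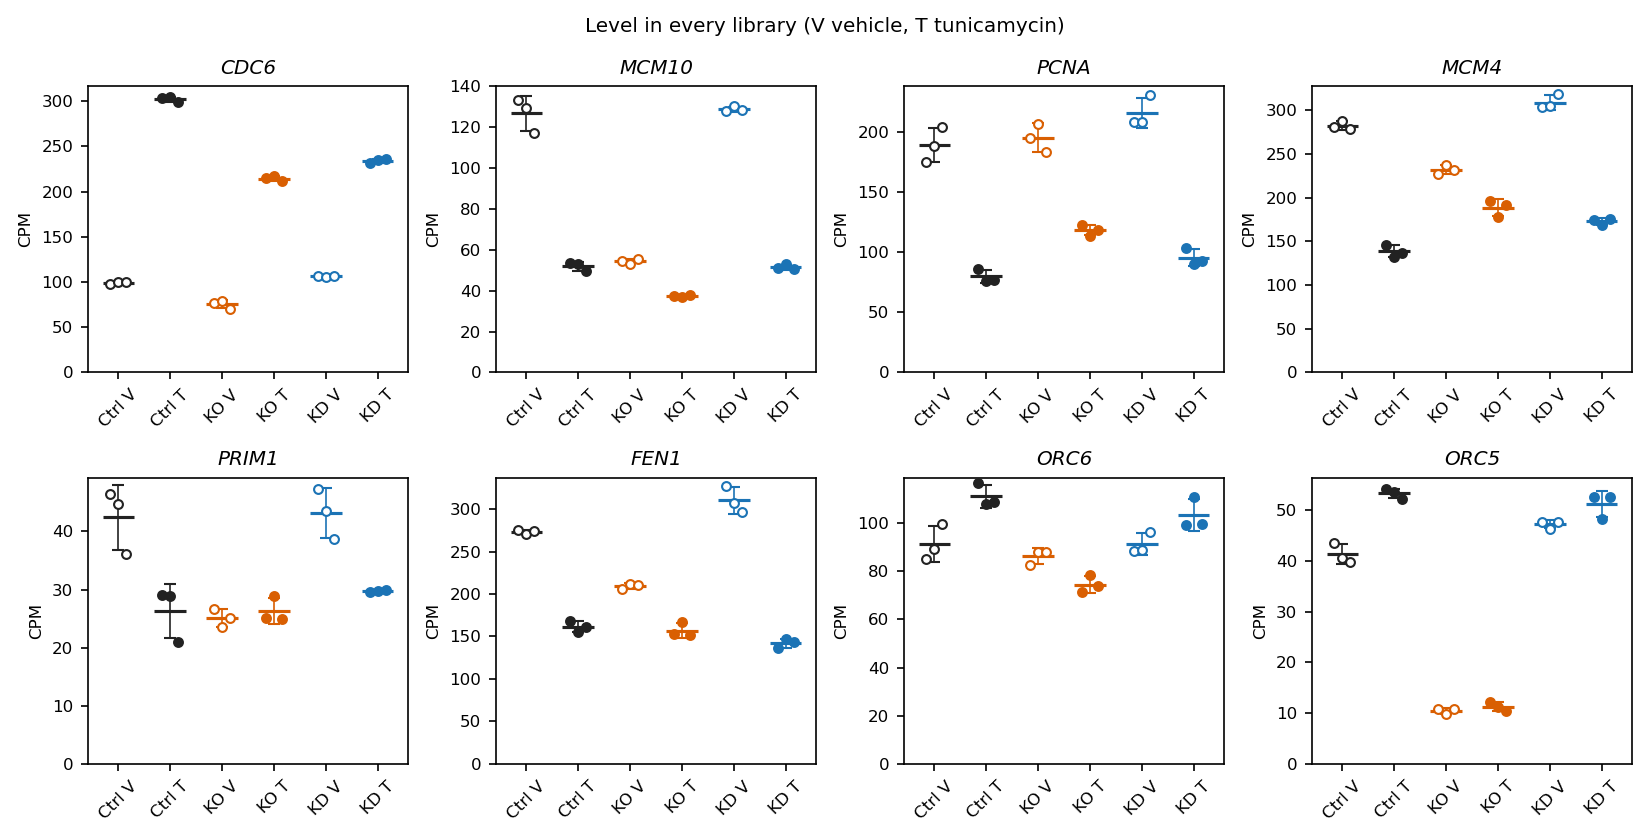
Level in CPM (y axis, from 0) of 8 replication genes in each of the 18 libraries; open points are vehicle, filled points tunicamycin, horizontal bars the mean of 3 libraries and whiskers 1 SD, with control in black, KO in orange and KD in blue. CDC6 is about 3 times higher with tunicamycin in control cells, PRIM1 libraries of the 2 treatments overlap in KO but not in control or KD cells, and ORC5 lies between 9.81 and 12.2 CPM in all KO libraries.

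The second question was how the genotypes differed under the same treatment. CARM1 KO cells with vehicle had 27 members below and 10 above control cells, with 7 past no threshold, at a median log2 fold change of −0.40 (all genes, 74.4% called, 37.5% higher and 36.9% lower, median −0.030). With tunicamycin 22 were lower and 15 higher, at a median of −0.23 (all genes, 75.2% called, 38.4% higher and 36.8% lower, median −0.016). These counts stood beside a background in which most genes were called. Under both treatments 21 members were lower and 9 higher. The share of all genes called alike under both treatments is not given here. FEN1, LIG1, MCM5, POLD2 and PRIM1 were called lower with vehicle and not called with tunicamycin. CDT1, PCNA, POLD3, RFC5 and TYMS were called higher, and ORC6 lower, with tunicamycin and not with vehicle, and RPA1 was called higher with vehicle and not with tunicamycin. MCM4 was lower with vehicle and higher with tunicamycin, and RPA3 was called in neither.

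Among licensing factors, 5 of 8 were lower and 1 higher in KO cells with vehicle (median −0.30), and 6 lower and 2 higher with tunicamycin (median −0.53). ORC5, on chromosome 7 of GRCh37 from 103766788 to 103848495, had 10.8, 9.81 and 10.8 CPM in KO cells with vehicle, a 4.08-fold lower level than in control cells (log2 fold change −2.03, SE 0.092, edgeR adjusted p = 1.6e-11). With tunicamycin it was at 12.2, 11.1 and 10.5 CPM, against 54.1, 53.5 and 52.3 CPM in control cells (log2 fold change −2.24, SE 0.082, edgeR adjusted p = 2.31e-12). This was the largest difference of the 44 members in either direction. ORC2 was also lower, at 35.2, 37.5 and 35.4 CPM against 63.5, 65.2 and 59.5 CPM with tunicamycin (log2 fold change −0.79, SE 0.065, edgeR adjusted p = 3.23e-08). ORC5 and ORC2 were thus below control without overlap, whereas ORC6 overlapped control with vehicle. GMNN, the inhibitor, was above control. It was at 185, 190.3 and 186 CPM against 109, 117 and 101 CPM with vehicle (log2 fold change 0.74, SE 0.056, edgeR adjusted p = 8.44e-09). With tunicamycin it was at 141, 137 and 133 CPM against 69.6, 63.3 and 65.9 CPM (log2 fold change 1.05, SE 0.054, edgeR adjusted p = 1.09e-10).

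All 6 MCM subunits were lower in KO cells with vehicle (median −0.78, range −1.08 to −0.33). With tunicamycin 4 were lower and 1 higher (median −0.33). MCM3 was at 111, 117 and 114 CPM in KO cells with vehicle, against 235, 233 and 233 CPM in control cells (log2 fold change −1.08, SE 0.046, edgeR adjusted p = 7.72e-12). With tunicamycin the levels were 93.3, 97.3 and 88.8 CPM and 177, 168 and 171 CPM (log2 fold change −0.88, SE 0.051, edgeR adjusted p = 5.35e-10). MCM4 was lower with vehicle (log2 fold change −0.33, SE 0.043, edgeR adjusted p = 5.34e-06) and higher with tunicamycin (log2 fold change 0.45, SE 0.053, edgeR adjusted p = 1.75e-06). Of the CMG assembly factors, 4 were lower and 2 higher under each treatment. MCM10, at the levels given above, was 2.40-fold lower in KO than in control cells with vehicle (log2 fold change −1.26, SE 0.062, edgeR adjusted p = 3.8e-11), and GINS3 and GINS4 were the higher ones.

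The firing kinase was higher in KO cells. DBF4 had 170.3, 164 and 167 CPM with vehicle, 2.13-fold the control level (log2 fold change 1.09, SE 0.058, edgeR adjusted p = 1.05e-10), and 137, 141 and 138 CPM with tunicamycin, 2.05-fold (log2 fold change 1.04, SE 0.069, edgeR adjusted p = 2.71e-09). CDC7 was higher with vehicle (log2 fold change 0.34, SE 0.085, edgeR adjusted p = 0.00193) and more so with tunicamycin, at 39.8, 38.7 and 43.5 CPM against 21.5, 19.4 and 21 CPM (log2 fold change 0.98, SE 0.081, edgeR adjusted p = 3.15e-08). Both subunits were thus above control under both treatments without overlap.

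Of the polymerase and primase genes, 7 of 9 were lower and 1 higher with vehicle (median −0.49), and 5 lower and 2 higher with tunicamycin (median −0.29). POLA2, the regulatory subunit of polymerase alpha, had 17.6, 21 and 17.9 CPM in KO cells against 45.5, 41.5 and 45.6 CPM in control cells with vehicle (log2 fold change −1.27, SE 0.09, edgeR adjusted p = 3.48e-09). With tunicamycin it had 16.7, 18.5 and 16.8 CPM against 40.8, 38.4 and 44.5 CPM (log2 fold change −1.24, SE 0.087, edgeR adjusted p = 4.47e-09). PRIM2, the large subunit of primase, was higher, at 16.5, 16.3 and 15.1 CPM against 10.8, 8.84 and 11.6 CPM with vehicle (log2 fold change 0.57, SE 0.12, edgeR adjusted p = 0.000581). The primase subunits PRIM1 and PRIM2 therefore differed from control in opposite directions with vehicle. RFC2, a clamp loader subunit, had 101, 99.6 and 98 CPM against 54.3, 44.4 and 49 CPM with vehicle (log2 fold change 0.97, SE 0.07, edgeR adjusted p = 4.2e-09). It had 103, 96.2 and 98.4 CPM against 38.5, 39.9 and 39.3 CPM with tunicamycin (log2 fold change 1.34, SE 0.058, edgeR adjusted p = 1.46e-11). RFC2 was thus higher under both treatments, while RFC3 and RFC4 were lower under both.

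For the smallest roles, log2 fold changes are given with vehicle first and tunicamycin second. RPA2 was higher in KO cells under both treatments (0.20 and 0.50, edgeR adjusted p = 0.00683 and 3.64e-07). RPA1 was called higher with vehicle but not with tunicamycin (0.35 and 0.10, edgeR adjusted p = 3.28e-05 and 0.105). RPA3 was called under neither (0.055 and −0.032, edgeR adjusted p = 0.356 and 0.598). FEN1 was lower with vehicle and past no threshold with tunicamycin (−0.43 and −0.033, edgeR adjusted p = 2.22e-07 and 0.588). The same held for LIG1 (−0.34 and 0.15, edgeR adjusted p = 0.000326 and 0.0935). FADS2, which overlaps FEN1, had −2.20 and −2.01. RRM1 was higher (0.22 and 0.39, edgeR adjusted p = 0.00018 and 1.43e-06). RRM2 was lower (−0.77 and −0.49, edgeR adjusted p = 8.27e-09 and 4.58e-07), so the subunits of ribonucleotide reductase went apart. TYMS was past no threshold with vehicle (0.083, edgeR adjusted p = 0.245) and higher with tunicamycin (0.13, edgeR adjusted p = 0.0202). ENOSF1, antisense to the 3′ end of TYMS, had −5.64 and −5.95.

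**Figure D4:**
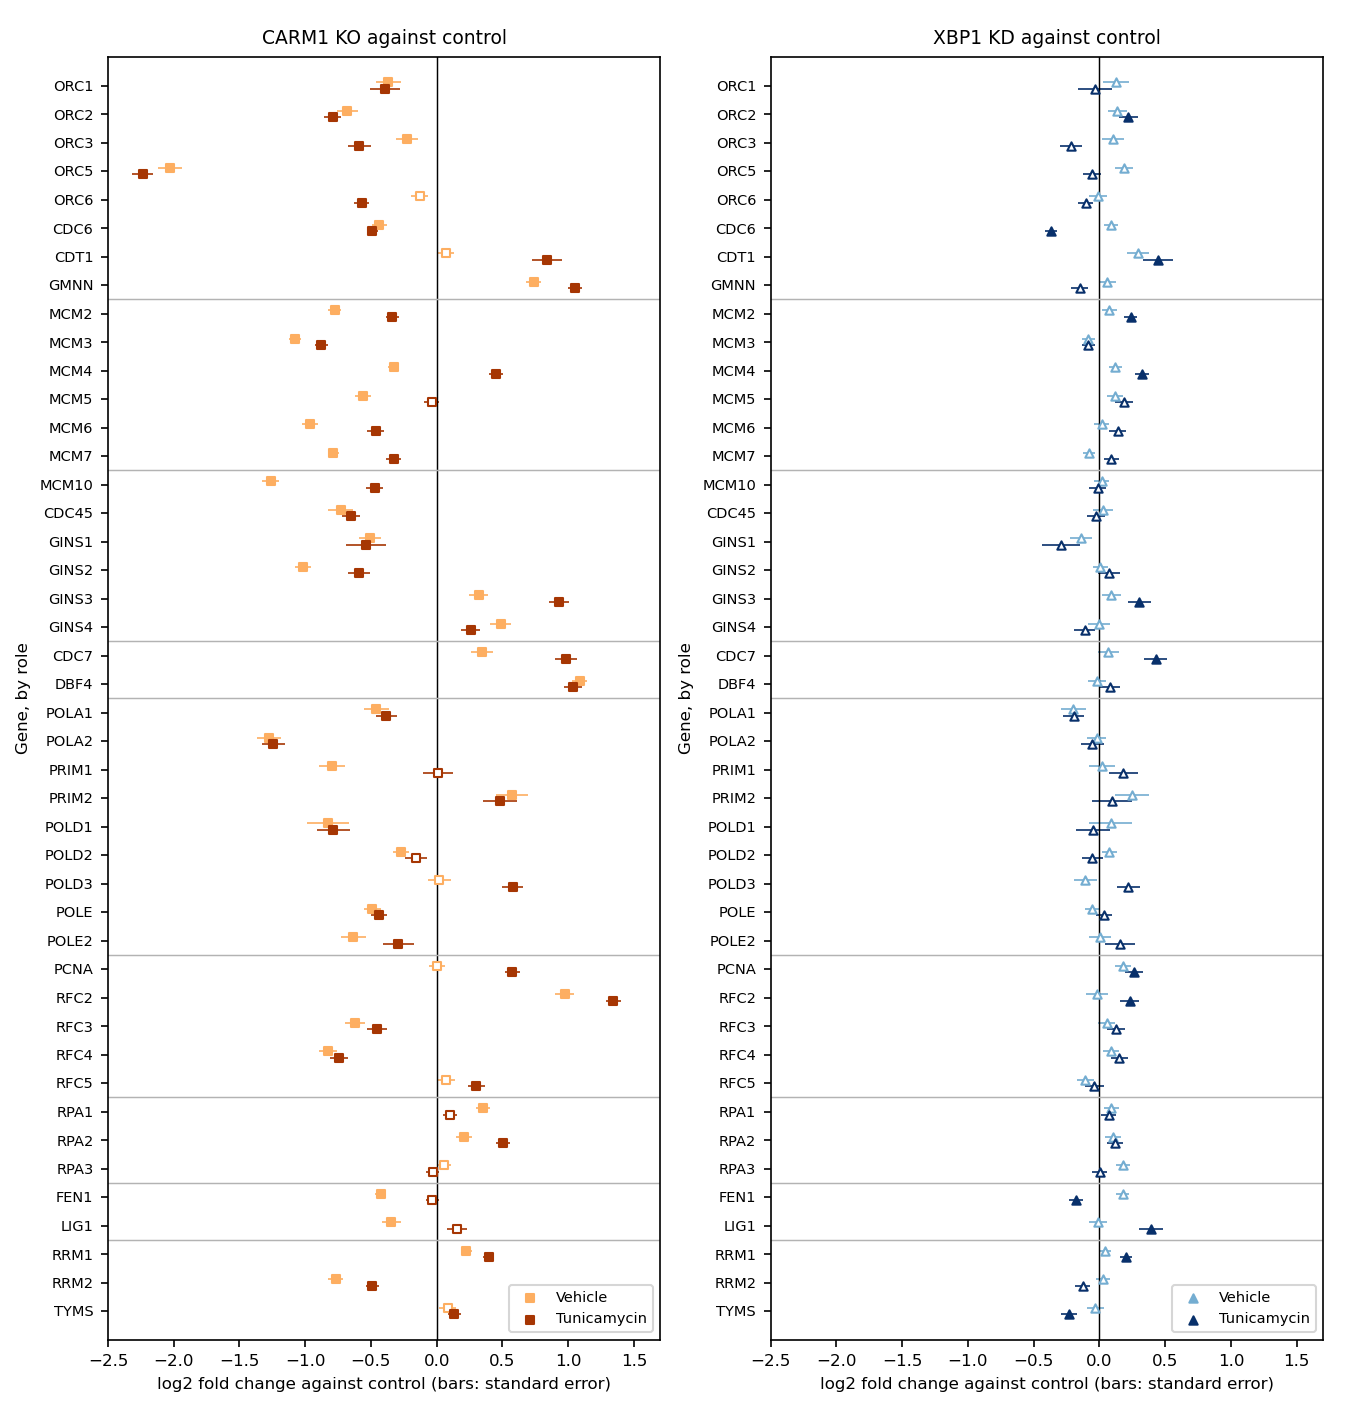
Log2 fold change of each replication gene in KO cells (left) and KD cells (right) against control cells (x axis; bars, standard error; 3 libraries against 3), with vehicle in the lighter and tunicamycin in the darker colour; filled symbols passed an FDR of 5% and open symbols did not. KO symbols spread from −2.24 to 1.34, whereas KD symbols stay within −0.37 to 0.45.

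Because the KO libraries differed from control libraries over most tested genes, the 40 nearest tested genes on the chromosome of each member, 20 on either side, were set beside it as a description. Near the end of a chromosome there were fewer, 32 for POLE and 28 for TYMS. ORC5 lay in a window whose neighbours had a median below 0, at −1.25 with vehicle and −1.26 with tunicamycin. GMNN lay in one with a median above 0, at 0.95 and 0.85. With vehicle the quartiles were −1.79 and −0.49 around ORC5, which lay below both at −2.03, and −0.23 and 1.93 around GMNN. For POLA2 (0.32 with vehicle), MCM3 (0.37), MCM10 (0.07), DBF4 (−0.13) and RFC2 (−0.37) the median of the neighbours was close to 0 or on the other side of it. The neighbours of ORC2 had a median of −0.22 and those of CDC7 one of 0.40 with tunicamycin, and those of PRIM2 had 0.44 with vehicle. Across the 44 members the fold change and the neighbours' median correlated at 0.42 with vehicle and 0.41 with tunicamycin, with all points from the same libraries, and 26 and 27 members lay on the same side of 0 as their neighbours. With vehicle 18 and with tunicamycin 16 of the 44 members lay outside the quartiles of their neighbours. By definition, about as many neighbours lie outside their quartiles as between them. The part of regional differences in the KO values was not tested further.

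**Figure D5:**
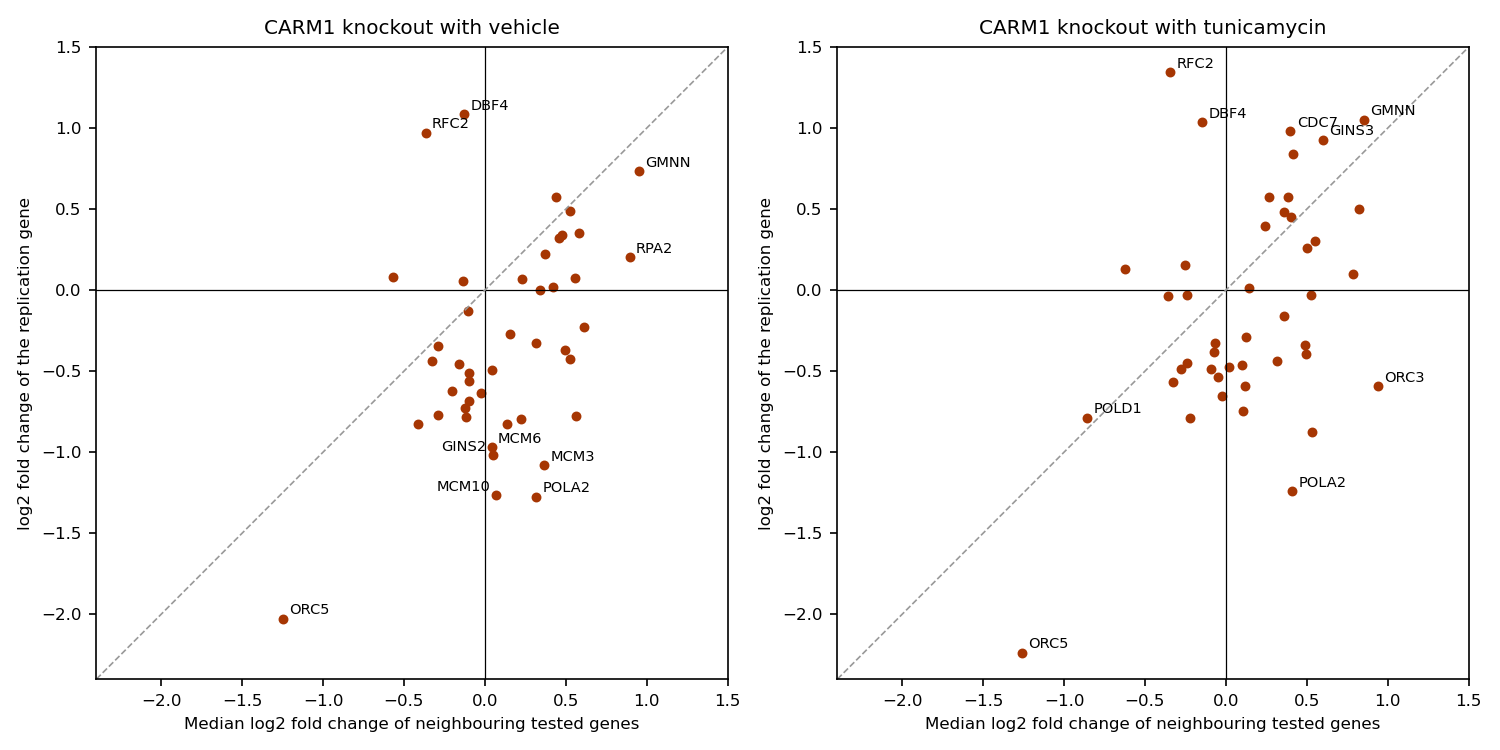
Log2 fold change of each replication gene in KO against control cells (y axis) against the median log2 fold change of its nearest tested genes (x axis; 40 genes, but 32 for POLE and 28 for TYMS), with vehicle (left) and tunicamycin (right); the dashed line marks equal values. ORC5 and the median of its neighbours are both low, GMNN and the median of its neighbours are both high, and DBF4, RFC2 and POLA2 lie far from the line.

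In XBP1 KD cells with vehicle, edgeR called 0 of the 44 members (all genes, 5.1% called, 2.07% higher and 3.03% lower), at a median log2 fold change of 0.049. An unadjusted p under 0.05 was found for 6 members, all higher: MCM4, FEN1, RPA3, PCNA, ORC5 and CDT1. The nearest to the threshold was CDT1, at 77, 87.8 and 70.1 CPM against 60.7, 62.5 and 67.5 CPM in control cells (log2 fold change 0.29, SE 0.081, edgeR adjusted p = 0.0514). DESeq2 called 2 members, CDT1 and FEN1, both higher. Without control vehicle replicate 3, edgeR called FEN1, PCNA and CDT1 higher and POLA1 lower, and without KD vehicle replicate 3 it called CDT1 higher. The log2 fold changes of the genes of the small roles lay between −0.03 for TYMS and 0.18 for RPA3, and none passed the threshold.

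With tunicamycin, 10 members were higher and 3 lower in KD than in control cells (all genes, 15.5% called, 6.99% higher and 8.55% lower), at a median log2 fold change of 0.072. CDC6 was at 232, 235 and 236 CPM in KD against 303, 304 and 299 CPM in control cells (log2 fold change −0.37, SE 0.044, edgeR adjusted p = 3.05e-05). TYMS was at 144, 128 and 136 CPM against 167, 159 and 152 CPM (log2 fold change −0.23, SE 0.058, edgeR adjusted p = 0.0128), and FEN1 at 137, 147 and 143 CPM against 168, 155 and 161 CPM (log2 fold change −0.18, SE 0.053, edgeR adjusted p = 0.0289). These 3 lay below control without overlap. Of the higher ones, CDT1 had 52.6, 42.1 and 42 CPM against 27.9, 33.3 and 39.4 CPM (log2 fold change 0.45, SE 0.12, edgeR adjusted p = 0.0151) and CDC7 had 28.7, 27.5 and 27 CPM against 21.5, 19.4 and 21 CPM (log2 fold change 0.43, SE 0.089, edgeR adjusted p = 0.00384). LIG1 had 49.4, 62.7 and 59.8 CPM against 39.1, 48.2 and 43.7 CPM (log2 fold change 0.39, SE 0.093, edgeR adjusted p = 0.00955) and MCM4 174, 169 and 176 CPM against 146, 132 and 137 CPM (log2 fold change 0.32, SE 0.053, edgeR adjusted p = 0.000589). CDT1, CDC7, LIG1 and MCM4 had all fallen with tunicamycin in control cells, but the same control tunicamycin libraries enter both comparisons. Their responses did not differ between KD and control cells past the threshold (interaction, edgeR adjusted p = 0.795, 0.164, 0.142 and 0.213). The remaining 6 higher members were GINS3, PCNA, MCM2, RFC2, ORC2 and RRM1, at 0.20 to 0.30 on the log2 scale. The count rested on single libraries: without control tunicamycin replicate 1 or 3 it was 6 higher instead of 10, and without KD tunicamycin replicate 1 or 3 it was 5. FEN1 lost its call without any of these 4, CDT1 without control replicate 1 or KD replicate 1, LIG1 without KD replicate 3 and TYMS without KD replicate 2. DBF4, RPA1, RPA2, RPA3 and RRM2 passed no threshold (0.084, 0.071, 0.12, 0.0011 and −0.13).

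Other genes around the replication fork were read from lists of the same pathway. In control cells with tunicamycin, 10 of 16 other initiation factors fell and 1 rose, with CCNE1, cyclin E1 (−1.55), and CDC25A (−0.81) lowest and ORC4 (0.31) higher. Of 18 other genes of the fork and the lagging strand, 8 fell and 2 rose, led by the checkpoint mediator CLSPN (−1.36) and DSCC1 (−1.04), with RNASEH2B (0.31) and RFC1 (0.17) higher. Of 9 genes of chromatin replication 8 fell, led by the histone chaperones ASF1B (−1.17) and CHAF1B (−1.11), and 1 rose, ASF1A (0.90). All these values are log2 fold changes past the threshold of 0.05 on the edgeR adjusted p.

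Of 13 genes of the E2F and retinoblastoma family, 7 fell and 3 rose in control cells with tunicamycin, with E2F8 (−1.92) and E2F2 (−1.51) lowest and E2F5 (0.30) and E2F6 (0.20) highest. Of 13 other nucleotide supply genes 6 fell, led by TK1 (−0.91) and DCTPP1 (−0.87), and 2 rose, CTPS1 (0.55) and RRM2B (0.42). Of 10 checkpoint genes 3 fell, with WEE1 (−0.74) and ATRIP (−0.44) lowest, and 2 rose, RAD9A (0.79) and RAD17 (0.66). Of 10 mitotic genes 7 fell, led by MKI67 (−0.68) and CDK1 (−0.58), and 2 rose, CCNB2 (0.63) and CDC20 (0.30). The medians of these 7 lists ran from −0.78 for chromatin replication to −0.0016 for the checkpoint, and the 44 members lay between, at −0.34.

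In KD cells with tunicamycin the same 7 lists had 10, 9, 6, 7, 8, 2 and 7 genes lower and 0, 1, 1, 2, 1, 2 and 1 higher (initiation, fork, E2F, nucleotide, chromatin, checkpoint and mitotic genes, in that order). With tunicamycin against vehicle in KO cells, 7, 5, 3, 10, 6, 2 and 5 fell and 1, 5, 3, 2, 0, 4 and 0 rose. CCNE1 had an interaction term of 1.28 between KO and control cells (edgeR adjusted p = 3.67e-07), E2F2 one of 0.98 (edgeR adjusted p = 0.000217) and ASF1A one of −0.9993 (edgeR adjusted p = 0.000253). Over the 7 lists in that order, 3, 5, 5, 4, 6, 1 and 1 called terms lay above 0 and 0, 0, 2, 1, 1, 2 and 2 below. Between KD and control cells, 0 of the genes of these lists had a called interaction.

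Against control cells with vehicle, the lists of KO cells held genes called in both directions, except for the checkpoint. Chromatin replication genes had 7 of 9 lower, with DTL (−2.65) and HELLS (−1.90) lowest and DNMT1 (0.43) higher, and checkpoint genes 8 of 10 lower, with ETAA1 (−1.28) and ATRIP (−0.69) lowest. The E2F family had 5 lower, led by E2F5 (−2.27) and RB1 (−1.87), and 5 higher, led by E2F7 (1.21) and E2F3 (0.74). Nucleotide supply had 5 lower, among them DUT (−1.33), and 7 higher, led by SAMHD1 (1.91) and TK1 (1.4991). Initiation had 9 lower, led by CDC25A (−1.38) and MCM9 (−1.33), and 4 higher, led by CCNE2 (1.13) and CDK2 (1.05). Fork genes had 9 lower, led by ATAD5 (−0.81) and RNASEH2B (−0.75), and 8 higher, led by RNASEH2C (1.69) and POLD4 (1.27). Mitotic genes had 3 lower, with CENPF (−1.34) and CDK1 (−0.51) lowest, and 6 higher, led by BUB1 (1.02) and AURKA (0.81). With tunicamycin, 7, 4, 5, 4, 5, 6 and 3 genes of the 7 lists were lower in KO than in control cells and 7, 11, 8, 9, 1, 0 and 5 higher, in the order given above. In KD cells with vehicle the called genes of these lists were TOP2A (−0.50), DSCC1 (−0.28), POLE3 (0.28), E2F6 (0.38) and SAMHD1 (0.39). With tunicamycin, 1, 5, 0, 0, 0, 1 and 0 genes of the lists were lower in KD than in control cells and 3, 1, 3, 3, 0, 0 and 1 higher. The proliferation marker MKI67, which is among the mitotic genes, differed by 0.77 in KO and −0.21 in KD cells with vehicle (edgeR adjusted p = 1.05e-08 and 0.0647).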

How the data were processed

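mRNA of 18 A1847 libraries was measured by 3′ end sequencing with the Lexogen 3′ mRNA-seq kit, as 75 nt single reads. Per the study's methods, the authors aligned reads to hg19 with bowtie2 and deposited RSEM expected counts per Ensembl gene, as whole numbers and without normalization (RSEM 1.2.3 in the submitters' processing notes). The Ensembl release is not given in the sources used here. Groups were taken from the labels. A 3′ tag count depends on where the transcript ends, so levels were not compared between genes.

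In R 4.3.3, edgeR 4.0.16 was run with filterByExpr (minimum count 10, all libraries), TMM factors and quasi-likelihood F tests on the compared groups, with Benjamini-Hochberg adjustment over the 17317 genes tested and an FDR of 5%. A standard error (SE) was taken as |log2 fold change|/√F. DESeq2 1.42.0 was an alternative, beside its size factors, no filter, a filter on the compared libraries, a joint fit of all groups, a replicate block and leaving out each library. With 3 libraries against 3 an exact permutation test cannot give a p below 0.1, so none was run. Replicate pairs had a chi-square per degree of freedom of 1.84 to 6.89 over genes with at least 20 counts, above counting error, and none was a duplicate. Positions came from GENCODE on GRCh37. The calculations were tested on simulated data.

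The members and lists were chosen with earlier results of these data known. Named with values in every library were the 4 members with the largest called change in each direction per comparison whose groups did not overlap, the 3 per direction for interactions, all genes of roles with 3 or fewer, and the check genes CARM1, XBP1, HSPA5 and DDIT3. From other lists, counts are given, with the 2 most changed genes per direction for tunicamycin in control cells and for each genotype against control with vehicle, except for 1 gene that is not reported here. For the remaining comparisons of these lists, counts or single genes are given. MCM7 and CDT1 in the tunicamycin comparison, MKI67 and the genes overlapping a member's 3′ end were added after their values were seen. DBF4P1 was the only listed pseudogene of a member with counts (at most 27 in a library).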

Additional observations from a re-analysis of the deposited data

Results flagged for a closer look

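The response to tunicamycin differed between KO and control cells, by the test of the difference itself, for 19 replication genes above 0 and 3 below. Over all genes, 10.5% were called above 0 and 12.4% below. The named terms were 0.76 for PRIM1, 0.75 for MCM10 and 0.73 for MCM4, and −0.49 for ORC6, −0.41 for ORC3 and −0.30 for RPA1, on the log2 scale. ORC3 and RPA1 lost their calls without the filter on low counts and without some single control libraries. PRIM1, MCM10 and MCM4 were lower in KO than in control cells already with vehicle, and the KO libraries stand apart from the others over most genes. Their part in these terms was not tested. Between KD and control cells, 2 replication genes had a called term below 0, CDC6 with −0.48 and FEN1 with −0.38 (all genes, 0.364% above and 1.67% below). Groups of 3 libraries were not searched for single samples far from the rest.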

How the results depend on the processing

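Of 240 recomputed counts of called members, 221 stayed within 1.5 times the reported count, and of 936 recomputed values of named genes 889 kept their direction and side of the threshold, 36 lost and 11 gained a call, and 0 changed sign. Without the filter, tunicamycin raised 5 members in KD cells instead of 3, the KO interaction lay below 0 for 1 instead of 3 (ORC3, edgeR adjusted p = 0.0824, and RPA1, 0.0679, lost their calls), and the KD interaction lay above 0 for 1 instead of 0. The median KO interaction term over all genes was then 0.045, against −0.014 with the filter. In KD cells with vehicle, members called higher were 1 with DESeq2's size factors, 2 with DESeq2, 3 without the filter and 2 with all libraries in one fit, instead of 0. The cause was not tested. With each library left out in turn, the counts higher and lower ranged over 6 to 7 and 28 to 30 for tunicamycin in control cells, 4 to 5 and 22 to 25 in KO cells, 2 to 4 and 28 to 29 in KD cells, 10 to 11 and 26 to 27 for KO with vehicle, 14 to 16 and 20 to 22 for KO with tunicamycin, 0 to 3 and 0 to 1 for KD with vehicle, 5 to 9 and 2 to 3 for KD with tunicamycin, 17 to 22 and 1 to 3 for the KO interaction, and 0 to 1 and 2 to 3 for the KD interaction. Same-numbered libraries of different groups showed no shared deviation (correlations from −0.252 to 0.244). Such values cannot exclude that libraries of the same number were handled together. With the replicate block, the called members were 37, 29, 32, 37, 37, 0, 12, 21 and 2, against 36, 30, 33, 37, 37, 0, 13, 22 and 2 (tunicamycin in control, KO and KD cells, KO and KD against control with vehicle and tunicamycin, and the KO and KD interactions, in the order of the ranges above), and ORC6 in KD cells had an edgeR adjusted p of 0.0647. Every member had at least 54 counts in each library, and 3 libraries per group limit the precision.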
